A study of Rattus norvegicus with 24 samples.

Results

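The Nrf2 pathway was examined in rat lung after inhalation of hexanal, through 9 genes chosen by name: Nfe2l2, which encodes the transcription factor Nrf2, its inhibitor Keap1, and the target genes Gclc, Gclm, Slc7a11, Srxn1, Txnrd1, Nqo1 and Hmox1. All 9 were on the array and all 9 passed the filter on dim probes, among 21261 genes or unnamed probes tested, of which 12500 carried a gene symbol. Lung mRNA came from 24 F-344 rats of both sexes, with 6 rats (3 males and 3 females) in each group of a filtered-air control and hexanal at 600, 1000 and 1500 ppm. The age in the sample labels is 7 to 8 weeks. The paper gives the age of the rats at purchase, before the exposure, so they were older when lung was taken. By the sample labels the rats inhaled hexanal for 4 hours per day, 5 days per week, over 5 weeks. The paper states another number of weeks. No genetic change or second agent was named for any group, and every value is from whole lung RNA, in which fewer cells of a type and less RNA per cell cannot be told apart.

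Nrf2 is held in the cytoplasm by Keap1, which presents it to a ubiquitin ligase for degradation. When oxidants or electrophiles, among them some aldehydes, react with cysteines of Keap1, newly made Nrf2 escapes. It enters the nucleus, pairs with a small Maf protein and binds antioxidant response elements (AREs) near its target genes. Those targets make glutathione, reduce thioredoxin and peroxiredoxins, reduce quinones and break down heme, and in lung they are known as a defence of epithelium and macrophages against inhaled oxidants. Because Nrf2 is regulated mainly as a protein, the mRNA of the target genes is the usual readout of its activity, and the mRNA of Nfe2l2 and Keap1 is not.

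The promoters of the members are shown because the ARE is the feature that makes a gene a target of Nrf2. Windows of 300 bases (250 before and 50 after the start site) were taken from RefSeq for the rat build GRCr8 and were found for 8 of the 9 members, Hmox1 being the one not matched. They were searched on both strands for the ARE core, TGACNNNGC, and for the AP-1 site, TGACTCA, which many AREs contain. The ARE core was held by 12.1% and the AP-1 site by 4.63% of 33469 rat promoter windows. An ARE core was present in the windows of 3 members. In Gclm it began 172 bases before the start site, in the second of 2 listed start sites of Txnrd1 it began 78 bases before, and in Nfe2l2 it began 38 bases after. Srxn1 held the AP-1 site in 2 copies, 62 and 5 bases before its start site, with no overlap with an ARE core. The windows of Keap1, Nqo1, Gclc and Slc7a11 held neither string of letters. Bases farther from the start site were not searched, so a window without a match does not show that the gene lacks an ARE. The 3 windows with a match before the start site are printed 5′ to 3′ on the strand of the gene, up to 10 bases past the start site, with the matched letters in capitals. They lie at chr2:213031885-213032144 on the plus strand, chr3:161064562-161064821 on the plus strand and chr7:22755895-22756154 on the minus strand.

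Gclm: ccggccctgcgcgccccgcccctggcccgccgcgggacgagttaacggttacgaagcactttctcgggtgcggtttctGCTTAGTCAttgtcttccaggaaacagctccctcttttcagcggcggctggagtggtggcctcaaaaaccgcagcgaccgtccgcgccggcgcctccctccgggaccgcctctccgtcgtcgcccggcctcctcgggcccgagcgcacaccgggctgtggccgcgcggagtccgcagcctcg

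Srxn1: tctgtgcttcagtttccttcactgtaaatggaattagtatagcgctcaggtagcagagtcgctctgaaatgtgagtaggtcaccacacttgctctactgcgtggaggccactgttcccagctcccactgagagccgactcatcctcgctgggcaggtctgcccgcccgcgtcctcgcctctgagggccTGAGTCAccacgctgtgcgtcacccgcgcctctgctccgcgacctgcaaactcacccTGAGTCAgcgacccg

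Txnrd1: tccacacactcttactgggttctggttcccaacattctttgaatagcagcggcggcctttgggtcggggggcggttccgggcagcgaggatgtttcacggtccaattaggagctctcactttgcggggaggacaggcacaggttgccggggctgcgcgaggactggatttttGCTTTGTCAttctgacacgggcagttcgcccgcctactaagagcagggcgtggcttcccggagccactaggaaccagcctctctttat

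Each rat was measured on 1 array, and values are given as log2 signal minus the 75th percentile of the same array, so that they can be compared between rats for 1 probe but not between probes. That percentile lay between 1701 and 3130 intensity units, and between 70.7% and 81.9% of probes were well above background on an array. The 24 arrays lay on 6 slides, each of 1 sex, and in each sex 1 of the 3 rats at 600 ppm shared a slide with the 3 controls, whereas the 1000 and 1500 ppm rats shared none with controls. Lung markers were present in every group: the summed level of 4 type II cell markers was between 8.68 and 9.14 and that of 3 type I cell markers between 5.68 and 6.40. The summed level of 5 heart muscle markers ranged from 1.54 to 6.95 between rats, and its range overlapped in all 4 groups (Nppa did not pass the filter). Each value below comes from 1 probe per gene. The probes of Gclm and Slc7a11 were dim, being not well above background on 1 of 24 arrays each (600 ppm rat 7 for both).

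Hexanal exposure was compared with control at each dose to ask whether the Nrf2 genes responded to the aldehyde. None of the 9 members passed the threshold of a 1.5-fold change with an unadjusted p under 0.05 at any dose, while 0.607% of all genes passed at 600 ppm, 1.63% at 1000 ppm and 1.23% at 1500 ppm. The count of members with an unadjusted p under 0.05 in limma was also 0 at each dose, against 4.35%, 8.97% and 6.95% of all genes, and so was the count with an adjusted p under 0.05, against 0%, 0.0188% and 0.0047%. The median difference of the members was -0.0047, 0.026 and 0.028 on the log2 scale at the 3 doses, beside medians of -0.00029, 0.0055 and 0.012 over all genes. Members above control in their mean numbered 4, 5 and 6 of 9, beside 49.95%, 51.4% and 53.7% of all genes.

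**Figure D1:**
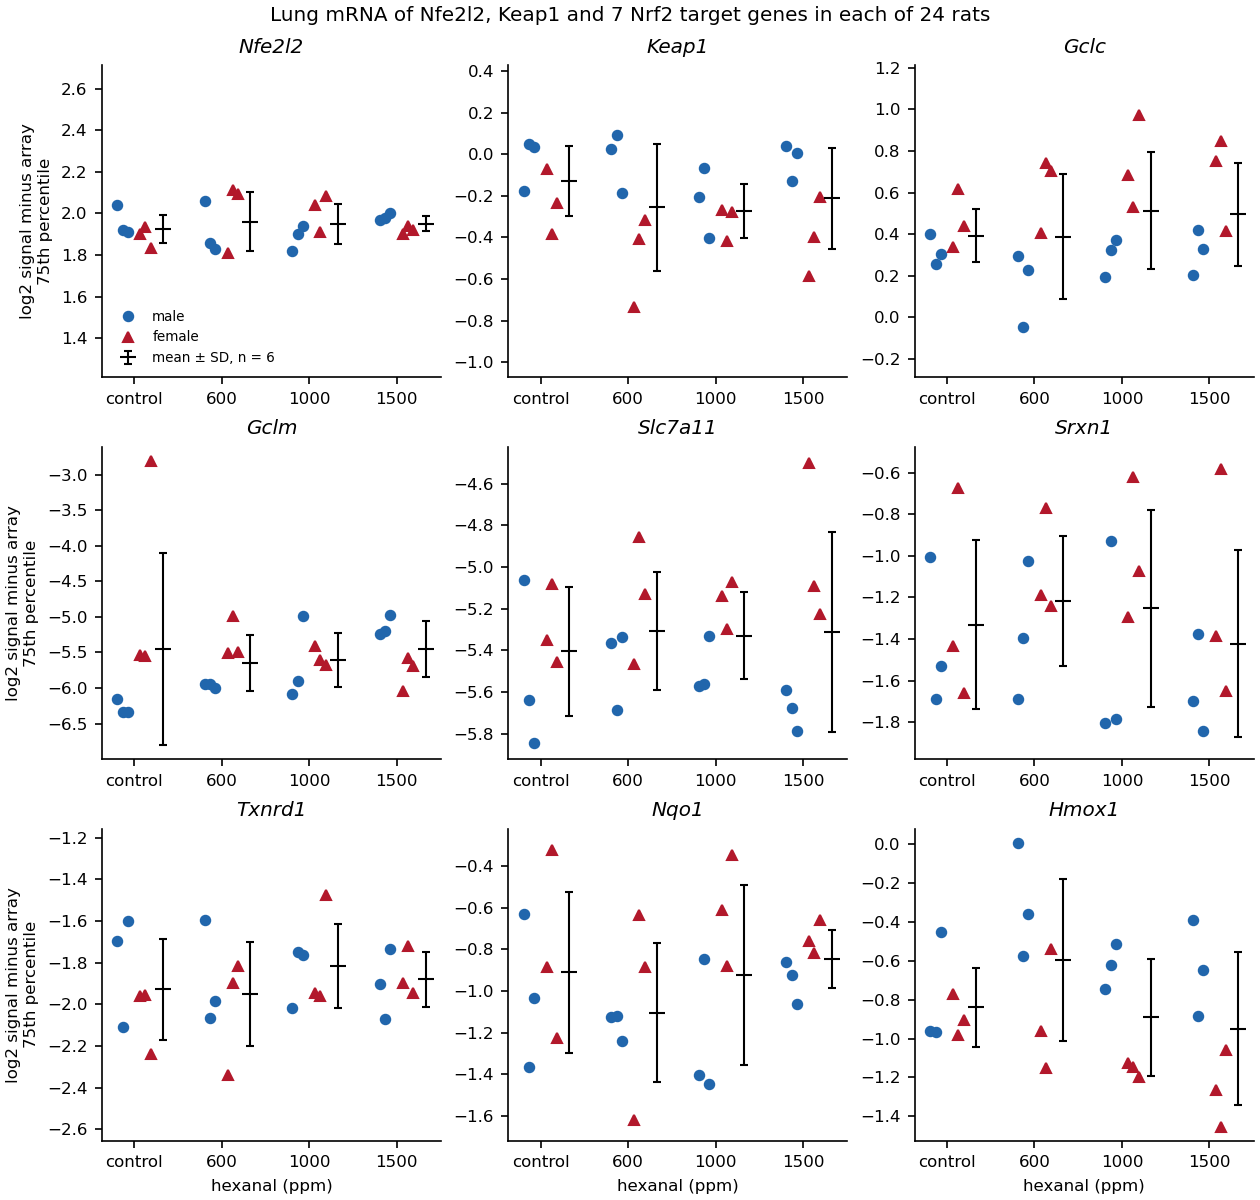
Level of each of the 9 genes in each rat (y axis, log2 signal minus the 75th percentile of the array, each panel with its own range) against the hexanal concentration (x axis, ppm). Circles are males, triangles are females, and black bars are the mean ± SD of 6 rats; the dose groups overlap the control group in every panel, and 1 control female lies far above all other rats for Gclm, at -2.81.

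Nfe2l2 (NM_031789) encodes Nrf2 itself. Its level had a lowest, median and highest value of 1.83, 1.91 and 2.04 in the control rats, 1.81, 1.96 and 2.11 at 600 ppm and 1.82, 1.93 and 2.08 at 1000 ppm. The 1500 ppm rats had 1.90, 1.95 and 2.00. All 4 groups overlapped, and the 1500 ppm rats lay wholly inside the control range. The largest of the 3 differences from control was 0.036 at 600 ppm (SE 0.062, 95% confidence interval -0.092 to 0.16, exact permutation p = 0.57, n = 6 against 6). The gene varied little between rats, with a residual SD of 0.094, at the 6.46th percentile of all genes.

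Keap1 (NM_057152) encodes the adaptor that marks Nrf2 for degradation. Its level was -0.38, -0.12 and 0.05 (lowest, median and highest) in control rats and -0.74, -0.25 and 0.09 at 600 ppm. It was -0.41, -0.27 and -0.07 at 1000 ppm and -0.58, -0.17 and 0.04 at 1500 ppm. The mean was below the control mean at each dose, but within the spread of the rats. The difference at 1000 ppm was -0.14 (SE 0.13, interval -0.40 to 0.12, exact permutation p = 0.13), and those at 600 and 1500 ppm were -0.13 and -0.08.

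Gclc, Gclm and Slc7a11 serve the making of glutathione. Gclc (NM_012815) encodes the catalytic subunit of glutamate-cysteine ligase, the rate-limiting enzyme. Its level was 0.26, 0.37 and 0.62 (lowest, median and highest) in control rats, -0.05, 0.35 and 0.74 at 600 ppm and 0.19, 0.45 and 0.97 at 1000 ppm. The 1500 ppm rats had 0.20, 0.42 and 0.85. The groups overlapped, with 2 rats of each dose group above every control rat, all of them females, and 2, 1 and 1 below every control rat with rising dose. The differences were -0.0047, 0.12 and 0.10 with rising dose (SE 0.14 each), and the last had an interval of -0.19 to 0.39 (exact permutation p = 0.39).

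Gclm (NM_017305) encodes the modifier subunit of the same enzyme. Its level was -6.34, -5.85 and -2.81 (lowest, median and highest) in control rats, -6.00, -5.72 and -4.99 at 600 ppm and -6.08, -5.64 and -4.99 at 1000 ppm. The 1500 ppm rats had -6.04, -5.41 and -4.97. The control female rat 23, at -2.81, lay 2.73 above the next control rat, and the other 5 controls lay between -6.34 and -5.54. The differences from control were -0.19, -0.15 and 0.00014 (SE 0.41 each), with intervals that reached past 1.5-fold on both sides at every dose. Without rat 23 they were 0.34, 0.37 and 0.53, with an exact permutation p of 0.20, 0.15 and 0.067, and the last stayed short of 1.5-fold.

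Slc7a11 (NM_001107673) encodes the cystine importer that feeds glutathione synthesis. Its level was -5.84, -5.40 and -5.06 (lowest, median and highest) in control rats and -5.79, -5.41 and -4.50 at 1500 ppm, with the groups at 600 and 1000 ppm between -5.69 and -4.86. A single female at 1500 ppm, rat 36, held the top value, and the groups overlapped. The differences were 0.10, 0.08 and 0.09 (SE 0.19 each, exact permutation p = 0.58, 0.62 and 0.71). A second probe for the gene was well above background on 1 of 24 arrays and was not used.

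Srxn1 and Txnrd1 belong to the thioredoxin and peroxiredoxin system. Srxn1 (NM_001047858), sulfiredoxin, restores over-oxidised peroxiredoxins, and its level lay between -1.69 and -0.67 in control rats, -1.69 and -0.77 at 600 ppm and -1.80 and -0.62 at 1000 ppm. The 1500 ppm rats had a range of -1.84 to -0.58. The groups shared nearly the same range. The differences were 0.11, 0.08 and -0.09 (SE 0.23 each, exact permutation p = 0.59, 0.76 and 0.74). Txnrd1 (NM_031614), cytosolic thioredoxin reductase, lay between -2.24 and -1.60 in control rats, -2.34 and -1.60 at 600 ppm and -2.02 and -1.47 at 1000 ppm. Exposed to 1500 ppm, the rats had a range of -2.07 to -1.72. Its differences were -0.022, 0.11 and 0.05 (SE 0.12 each, exact permutation p = 0.87, 0.40 and 0.66). The second Txnrd1 probe that passed the filter gave -0.05, -0.05 and 0.13.

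Nqo1 (NM_017000), a quinone reductase and among the most used markers of Nrf2 activity, was at -1.36, -0.96 and -0.32 (lowest, median and highest) in control rats. It was at -1.62, -1.12 and -0.63 at 600 ppm and -1.45, -0.86 and -0.35 at 1000 ppm. At 1500 ppm the values were -1.06, -0.84 and -0.66. No rat of any dose group lay above every control rat, and the 1500 ppm rats had the narrowest spread (SD 0.14 against 0.39 in control). The differences were -0.19, -0.013 and 0.06 (SE 0.19 each, exact permutation p = 0.37, 0.94 and 0.72).

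Hmox1 (NM_012580), heme oxygenase 1, degrades heme and responds to Nrf2 and to inflammation. Its level was -0.98, -0.93 and -0.45 (lowest, median and highest) in control rats, -1.15, -0.56 and 0.01 at 600 ppm and -1.20, -0.93 and -0.51 at 1000 ppm. Values at 1500 ppm were -1.45, -0.97 and -0.39. At 600 ppm 2 rats lay above every control rat and 1 below, and at 1500 ppm 1 lay above and 3 below. The difference at 600 ppm, 0.24 (SE 0.19, interval -0.15 to 0.63, exact permutation p = 0.22), was the largest of any member at that dose. At 1000 and 1500 ppm it was -0.05 and -0.11.

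**Figure D2:**
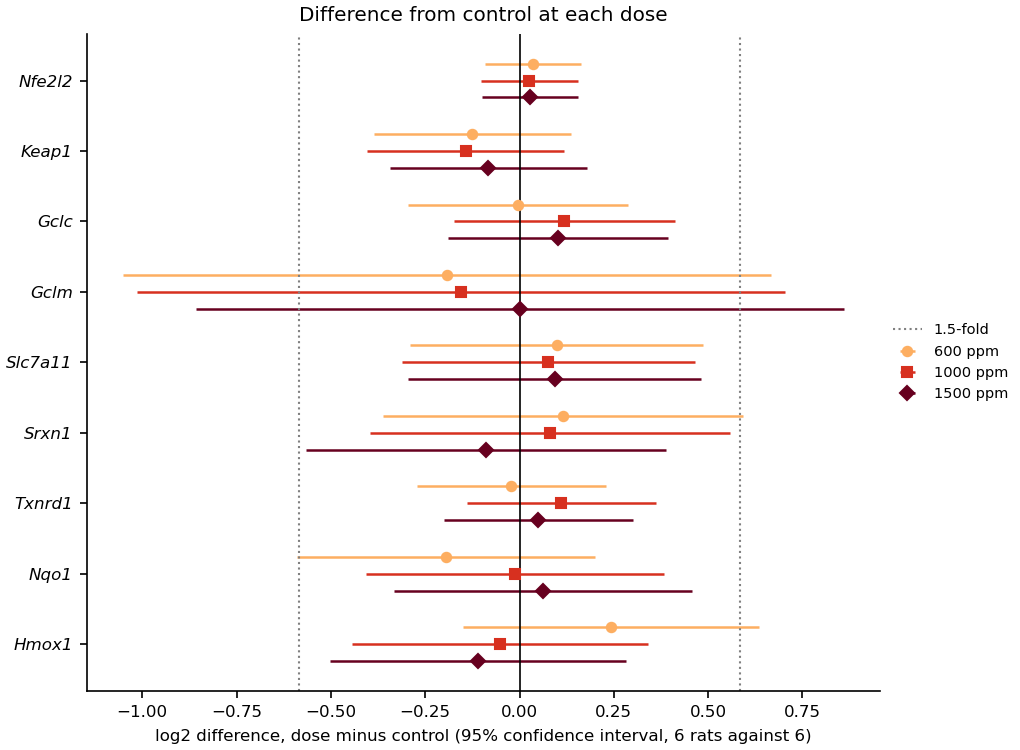
Difference of each dose group from control (x axis, log2) for the 9 genes (y axis). Points are limma estimates of 6 rats against 6, lines are 95% confidence intervals and dotted lines mark 1.5-fold; slide is not in this fit. Every interval spans 0, and 21 of 27 lie within 1.5-fold, against 9 of 27 with slide as a fixed block.

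The precision of the comparison can be read from the intervals. In the fit without slide, 21 of 27 member-by-dose intervals lay wholly within 1.5-fold of control, being 5, 8 and 8 of 9 with rising dose. With slide as a fixed block 9 of 27 did, being 5 of 9 at 600 ppm, 3 at 1000 ppm and 1 (Nfe2l2) at 1500 ppm, where the interval ran from -1.22 to 0.46 for Nqo1 and from -0.77 to 0.22 for Txnrd1. Over all genes the share within 1.5-fold was 75.8%, 72.4% and 73.5% with rising dose without the block. With the block it was 65.7%, 49.8% and 35.8%. Without the block, the 6 that reached past 1.5-fold were Gclm at all 3 doses and Nqo1, Hmox1 and Srxn1 at 600 ppm. The exact two-sided permutation test of 6 rats against 6, whose smallest possible p is 0.00216, gave p under 0.05 in 0 of 27 cases, and the smallest was 0.13 for Keap1 at 1000 ppm. A slope over dose passed an adjusted p under 0.05 in limma for 0 of 9 members, beside 0.0141% of all genes, and an unadjusted p under 0.05 for 0 of 9, beside 8.46%. The slopes lay between -0.11 (Hmox1) and 0.08 (Gclc) per 1000 ppm. At 600 ppm, where controls and exposed rats shared slides, the difference within the slide of male controls was 0.80 for Hmox1 and -0.12 for Nqo1, and within the slide of female controls -0.08 and -0.81, each being 1 exposed rat against 3 controls. With slide as a fixed block, 0 members passed at any dose, and the SE over all genes had a median of 0.153, 0.203 and 0.254 at the 3 doses against 0.133 without it, so that the 1000 and 1500 ppm comparisons rested on wider errors.

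The sexes were compared next, since males and females were both exposed. Females differed from males, averaged over the 4 groups, in 4 of 9 members at an adjusted p under 0.05 in limma with slide as a random block, beside 14.8% of all genes. Keap1 was lower in females by 0.28 (SE 0.075, adjusted p = 0.0184) and Hmox1 by 0.45 (SE 0.11, adjusted p = 0.00864). Gclc was higher in females by 0.35 (SE 0.080, adjusted p = 0.00796) and Slc7a11 by 0.40 (SE 0.12, adjusted p = 0.0347). Each of the 4 differed in the same direction in 4 of 4 dose groups, and so did Nqo1 and Srxn1, which did not pass. In the controls alone, male and female means (3 rats each) were -0.79 and -0.88 for Hmox1 and 0.32 and 0.47 for Gclc. They were -5.515 and -5.296 for Slc7a11 and -0.03 and -0.23 for Keap1. For each of the 4 the controls were closer between the sexes than the average over the 4 groups. Every slide held 1 sex, so that sex and slide are told apart only by the spread between the slides of 1 sex.

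The values behind these differences overlapped. Hmox1 had a lowest, median and highest level of -0.96, -0.60 and 0.01 in the 12 males and -1.45, -1.09 and -0.54 in the 12 females. Gclc was at -0.05, 0.30 and 0.42 in males and 0.34, 0.65 and 0.97 in females, so that only the tops of the males and the bottoms of the females met. Keap1 was at -0.40, -0.03 and 0.09 in males and -0.74, -0.35 and -0.07 in females. Slc7a11 was at -5.84, -5.58 and -5.06 in males and -5.47, -5.13 and -4.50 in females. For Keap1, Hmox1 and Gclc the adjusted p stayed under 0.05 when each of the 24 rats was left out in turn, and for Slc7a11 in 17 of 24 such fits, with 0.0587 as the highest adjusted p (without 600 ppm rat 27). With quantile normalization Slc7a11 had an adjusted p of 0.199. The other members had differences of 0.28 for Nqo1, 0.35 for Srxn1, 0.43 for Gclm, 0.02 for Nfe2l2 and -0.07 for Txnrd1, with adjusted p between 0.207 and 0.789.

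**Figure D3:**
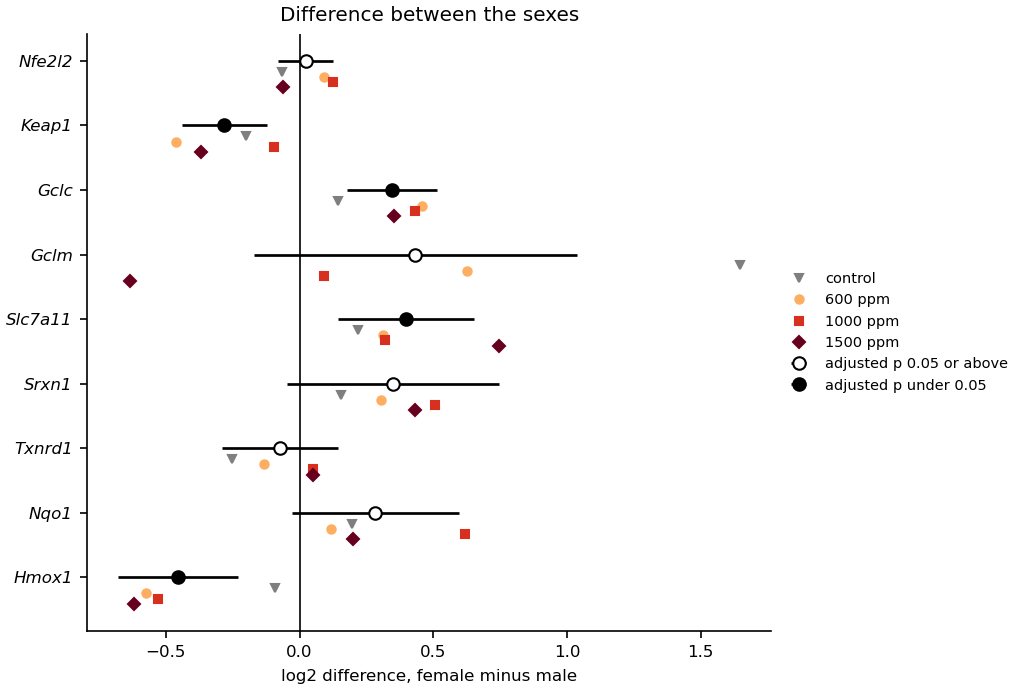
Difference between females and males (x axis, log2, female minus male) for the 9 genes (y axis). Large points are limma estimates over 24 rats with 95% confidence intervals, filled where the adjusted p is under 0.05, and small points are the difference of the means of 3 females and 3 males within each group; Keap1 and Hmox1 lie to the left of 0 and Gclc and Slc7a11 to the right in every group.

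Markers of 10 cell or tissue types were set beside these differences, without a test. The summed level of 3 macrophage markers (Cd68, Mrc1 and Msr1, Marco being too dim) was 2.02 ± 0.26 (SD, n = 12) in males, with a range of 1.47 to 2.39, and 1.62 ± 0.32 (n = 12) in females, with a range of 1.13 to 2.15. Macrophages are a main site of Hmox1 in lung. The part of macrophage content in the Hmox1 difference was not tested. Other lists were also lower in females. The summed level of 3 endothelial markers was 4.90 ± 0.15 in males and 4.65 ± 0.19 in females, and that of 3 type I cell markers was 6.26 ± 0.08 and 6.02 ± 0.21 (SD, n = 12 each). That of 2 neutrophil markers was 2.49 ± 0.67 in males and 1.90 ± 0.50 in females, and that of 3 red cell markers was 7.11 ± 0.17 and 6.87 ± 0.33. Lists with a higher mean in females were those of club cells, by 0.20, ciliated cells, by 0.22, and liver, by 0.35, while type II cells differed by -0.01. The part of these cell types in the sex differences of the members was not tested. The summed level of the 5 heart muscle markers was 4.03 ± 1.60 in males and 4.02 ± 2.16 in females (SD, n = 12 each).

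Whether the response to hexanal differed between the sexes was tested by the interaction of sex and dose. At 600 and 1000 ppm it passed an adjusted p under 0.05 for 0 of 9 members and 0 of all genes (0% in limma, with 5.02% and 9.43% of all genes and 0 and 1 of 9 members at an unadjusted p under 0.05), and at 1500 ppm for 0 of 9 members beside 4.97% of all genes. Gclm came nearest. It was the 1 member with an unadjusted p under 0.05 at 1000 ppm, with an interaction of -1.55 (SE 0.67, adjusted p = 0.487 in limma), and the 1 member at 1500 ppm, beside 20.2% of all genes. Its mean in males was -6.28, -5.96, -5.65 and -5.14 from control to 1500 ppm, and in females -4.63, -5.33, -5.56 and -5.77. Without control rat 23 the female control mean was -5.54 (n = 2), near the 1000 ppm mean and below that at 600 ppm. Between the rats of 1 slide, males at 600 ppm were 0.34 above controls (1 rat against 3), those at 1000 ppm were 0.019 below those at 600 ppm (2 against 2), and those at 1500 ppm were 0.15 below the 1 rat at 1000 ppm, so that the rise of the male means past 600 ppm lay between slides. In females the same 3 differences were -0.88 (with rat 23 among the controls), -0.27 and -0.10. The female effect minus the male effect at 1500 ppm was -2.28 (SE 0.67, interval -3.69 to -0.87, adjusted p = 0.0568 in limma).

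In males Gclm was 1.14 above control at 1500 ppm (SE 0.47, adjusted p = 0.229 in limma), where the 3 exposed rats had values of -5.24, -5.20 and -4.97 and the 3 controls -6.16, -6.34 and -6.34, without overlap. In females it was 1.14 below control (adjusted p = 0.238 in limma), where the exposed rats had -6.04, -5.58 and -5.69 and the controls -5.54, -5.54 and -2.81, again without overlap. The exact permutation p was 0.1 in either sex, the smallest that 3 rats against 3 allow. Any complete separation of 3 rats from 3 gives that value, and the share of all genes that separate in 1 sex was not counted. The size of the female difference rested on control rat 23. Without that rat the interaction was -1.37 (SE 0.32, adjusted p = 0.0275), and it passed an adjusted p under 0.05 in 4 of 24 fits that each left out 1 rat (without control rat 21, 22 or 23, or 1000 ppm rat 13). With slide as a fixed block it was -1.42 (SE 1.68, adjusted p = 0.691 in limma), and the 1500 ppm rats shared no slide with controls.

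Hmox1 gave an interaction of -0.53 at 1500 ppm (SE 0.25, interval -1.05 to 0.00004, adjusted p = 0.248 in limma). Male means were -0.79, -0.31, -0.62 and -0.64 from control to 1500 ppm, and female means -0.88, -0.88, -1.16 and -1.26. In males at 600 ppm it was 0.48 above control (SE 0.18, adjusted p = 0.91 in limma), with exposed rats at 0.01, -0.58 and -0.36 and controls at -0.96, -0.96 and -0.45. In females at 1500 ppm it was 0.37 below control (adjusted p = 0.306 in limma). The interaction of the other members at 1500 ppm lay between -0.17 (Keap1) and 0.53 (Slc7a11), with adjusted p of at least 0.318 in limma. When slide was a fixed block, the interactions at 1500 ppm moved to -1.63 for Nqo1 (SE 0.72, 0.0034 without the block), -0.97 for Txnrd1 (SE 0.44, 0.30 without), -0.94 for Keap1 (SE 0.38) and -0.53 for Nfe2l2 (SE 0.20, 0.0045 without). These 4 had an unadjusted p under 0.05, beside 19.2% of all genes, and an adjusted p between 0.169 and 0.249 in limma. Gclc turned from 0.21 to -0.57 and Slc7a11 from 0.53 to -0.0021. At 600 ppm Keap1 and Hmox1 had an unadjusted p under 0.05 with the block, beside 10.9% of all genes, and at 1000 ppm 0 of 9 did, beside 9.76%. No member passed an adjusted p under 0.05 in limma with the block, beside 0.0847%, 0.0141% and 0.762% of all genes at the 3 doses.

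The members were also compared with each other from rat to rat, as the deviation of each rat from the mean of its sex and dose. Of 36 pairs, 23 had a Pearson r above 0, and the median r was 0.22. Nfe2l2 moved with Txnrd1 at r = 0.76 (Spearman rho 0.76, permutation p = 0.00155, 0.0335 after Benjamini-Hochberg over the 36 pairs), and 0.527% of all genes had as high an r with Nfe2l2. It moved with Nqo1 at r = 0.69 (rho 0.64, permutation p = 0.00424, adjusted 0.042) and with Gclc at r = 0.66 (rho 0.67, permutation p = 0.00186, adjusted 0.0335), values matched by 2.10% and 3.09% of all genes. Gclc and Txnrd1 had r = 0.66 (rho 0.66, permutation p = 0.00467, adjusted 0.042), matched by 3.06% of all genes with Gclc and 4.98% with Txnrd1. For the pairs of Nfe2l2 the share counted from the other gene was 1.45% (Txnrd1), 1.87% (Nqo1) and 3.03% (Gclc). These 4 were the pairs that passed an adjusted p under 0.05 over the 36 pairs alone. The members were chosen with earlier results of these data known, and that adjustment does not cover their choice. With rho in place of r, 2 of the 4 passed (adjusted p of 0.0308 for Nfe2l2 with Txnrd1 and with Gclc, against 0.0818 and 0.0545 for the other two). Keap1, Gclm, Slc7a11, Srxn1 and Hmox1 were in no pair that passed, and Hmox1 and Srxn1 had the lowest r, -0.45.

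**Figure D4:**
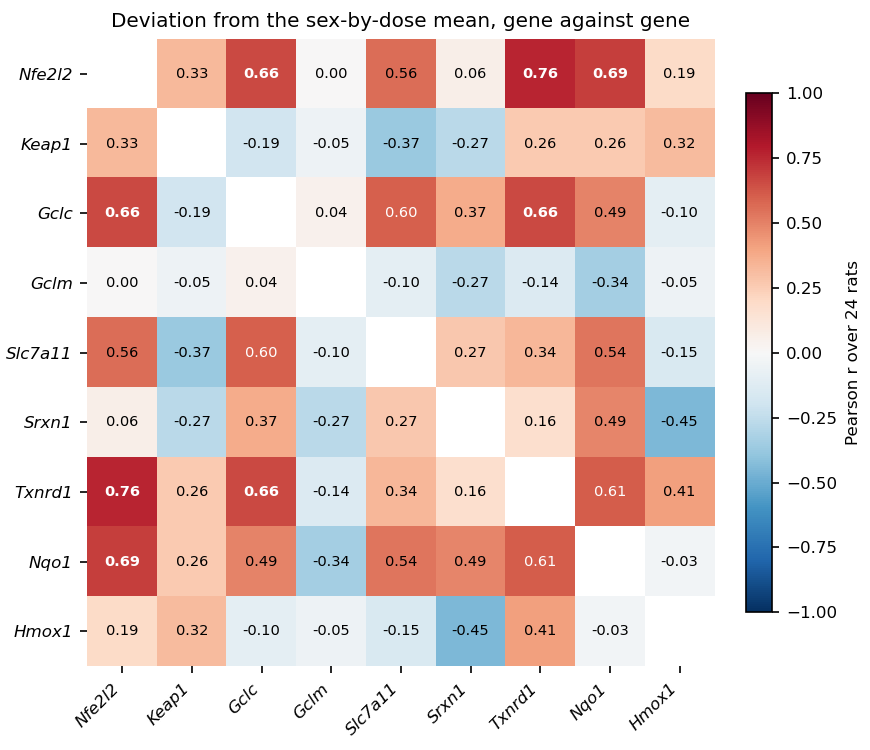
Pearson r (colour and number, from -1 to 1) between the deviations of each pair of genes (x and y axes) from the sex-by-dose mean over 24 rats. Bold numbers have a permutation p under 0.05 after Benjamini-Hochberg over 36 pairs; Nfe2l2, Txnrd1, Nqo1 and Gclc form the 4 bold pairs, with r between 0.66 and 0.76.

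The pair values depended on how the arrays were handled. With the slide means removed as well, 0 of 36 pairs passed, and r was 0.46 for Nfe2l2 with Txnrd1, 0.78 with Nqo1 and 0.38 with Gclc. It was 0.32 for Gclc with Txnrd1. With normexp background correction 0 pairs passed, and those r were 0.17, 0.37, 0.54 and 0.46. After leaving out the 2 rats farthest from the median of the first gene, r was 0.68, 0.66 and 0.58 for the pairs of Nfe2l2 and 0.62 for Gclc with Txnrd1. Over the same deviations, the array's own 75th percentile (log2) had r = 0.71 with Txnrd1, 0.59 with Nfe2l2, 0.46 with Nqo1 and 0.42 with Gclc, and the summed heart muscle markers had r = 0.76 with Gclc, 0.57 with Txnrd1, 0.52 with Nfe2l2 and 0.31 with Nqo1. The part of either in the pair values was not tested.

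By a fixed rule the gene with the highest Pearson r over the 24 arrays was named for each member, as a description. These were Mgme1 for Nfe2l2 (r = 0.80), Nsf for Keap1 (0.91), Fam81a for Nqo1 (0.85), Fcgr2b for Hmox1 (0.88), Cfap418 for Gclc (0.90), Spmip9 for Gclm (0.83), Tbc1d31 for Srxn1 (0.72), Usp39 for Txnrd1 (0.85) and Ugt1a6 for Slc7a11 (0.85). None of them was another member. Fcgr2b encodes an Fc receptor of macrophages and B cells, and Ugt1a6 a glucuronosyltransferase that is itself a known Nrf2 target. Spmip9 and Gclm had a Spearman rho of 0.40, well under their r.

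The wider pathway was taken as 18 partners and regulators of Nrf2, of which 16 were tested, and 28 further target genes, of which 27 were tested (Nfe2l3, Ep300 and Pgd were not matched to a probe by name). Among the partners and regulators, 0 of 16 passed the 1.5-fold threshold at 600, 1000 or 1500 ppm, with medians of 0.0046, -0.021 and -0.030 on the log2 scale, and 1 of 16 had an unadjusted p under 0.05 in limma at each dose, beside 4.35%, 8.97% and 6.95% of all genes, a share near that background. These genes are given as a description. At 600 ppm this was Rbx1, a subunit of the ubiquitin ligase to which Keap1 brings Nrf2. It lay between 2.416 and 2.547 in exposed rats and between 2.214 and 2.401 in controls, with means 0.14 apart (SE 0.065, adjusted p = 0.996 in limma). Rbx1 was picked by its p, and the share of all genes whose ranges do not overlap was not counted. At 1000 ppm it was Btrc, an adaptor of a second ligase that degrades Nrf2, at 0.13 above control (SE 0.058, adjusted p = 0.535 in limma). At 1500 ppm it was Prkcd, a kinase that phosphorylates Nrf2. Prkcd lay between 2.18 and 2.57 in exposed rats and between 2.50 and 2.87 in controls, a difference of -0.29 (SE 0.094, adjusted p = 0.502 in limma). The Prkcd difference with slide as a fixed block was -0.05 (SE 0.22).

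Of the 27 further targets, 0 passed at 600 ppm, 1 at 1000 ppm and 0 at 1500 ppm, beside 0.607%, 1.63% and 1.23% of all genes. Their medians were 0.04, 0.04 and 0.05, beside -0.00029, 0.0055 and 0.012 over all genes. Targets above control in their mean numbered 18, 18 and 20 of 27, beside 49.95%, 51.4% and 53.7% of all genes. The gene that passed was Gstm1, a glutathione S-transferase that conjugates aldehydes such as 4-hydroxynonenal. Its lowest, median and highest levels were 0.54, 0.84 and 1.45 in control rats, 0.73, 1.17 and 1.61 at 600 ppm and 1.16, 1.57 and 1.89 at 1000 ppm. Exposed to 1500 ppm, the rats had 0.67, 1.07 and 1.77. The 1000 ppm rats overlapped the controls. Gstm1 was 0.61 above control at 1000 ppm (SE 0.21, adjusted p = 0.516 in limma), and 0.21 above at both 600 and 1500 ppm (SE 0.21, adjusted p = 0.996 and 0.875). It stayed past the threshold in 19 of 24 fits without 1 rat, did not pass in the others (without control rat 2, 21 or 23, or 1000 ppm rat 31 or 33), and was 0.44 with slide as a fixed block (SE 0.35), where it did not pass.

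The other target groups held no gene that passed at any dose. Osgin1, an oxidative stress inducible growth inhibitor, was 0.50 above control at 1000 ppm (SE 0.19, adjusted p = 0.516 in limma). There it was 0.02 above with normexp background correction, 0.34 with slide as a fixed block (SE 0.20) and 0.50 with sex as a covariate (SE 0.11). At 600 and 1500 ppm Osgin1 was 0.22 and 0.30 above control (SE 0.19, adjusted p = 0.996 and 0.784 in limma). Cat, the other gene of its group, differed by 0.0045, -0.15 and -0.09 with rising dose. Among the remaining targets the gene with the smallest p in each group and at each dose is given with its log2 difference from control in parentheses, and every one had an adjusted p of at least 0.662 in limma. In glutathione and thioredoxin genes (5 tested) this was Prdx1, a peroxiredoxin, at 600 ppm (0.18) and 1000 ppm (0.12), and Gpx2, a glutathione peroxidase of epithelium, at 1500 ppm (0.22). In genes of NADPH supply (5 tested) it was Taldo1, a transaldolase, at 600 ppm (0.07) and Idh1, isocitrate dehydrogenase 1, at 1000 and 1500 ppm (0.13 and 0.15). In heme and iron genes (4 tested) it was Blvrb at 600 ppm (0.15) and Blvra at 1000 and 1500 ppm (-0.21 and -0.14). Both encode biliverdin reductases, which act after Hmox1. In the conjugation, reduction and export genes (11 tested), the group of Gstm1, it was Gsta4, a glutathione S-transferase, at 600 ppm (0.26) and the exporter Abcc1 at 1500 ppm (-0.13).

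**Figure D5:**
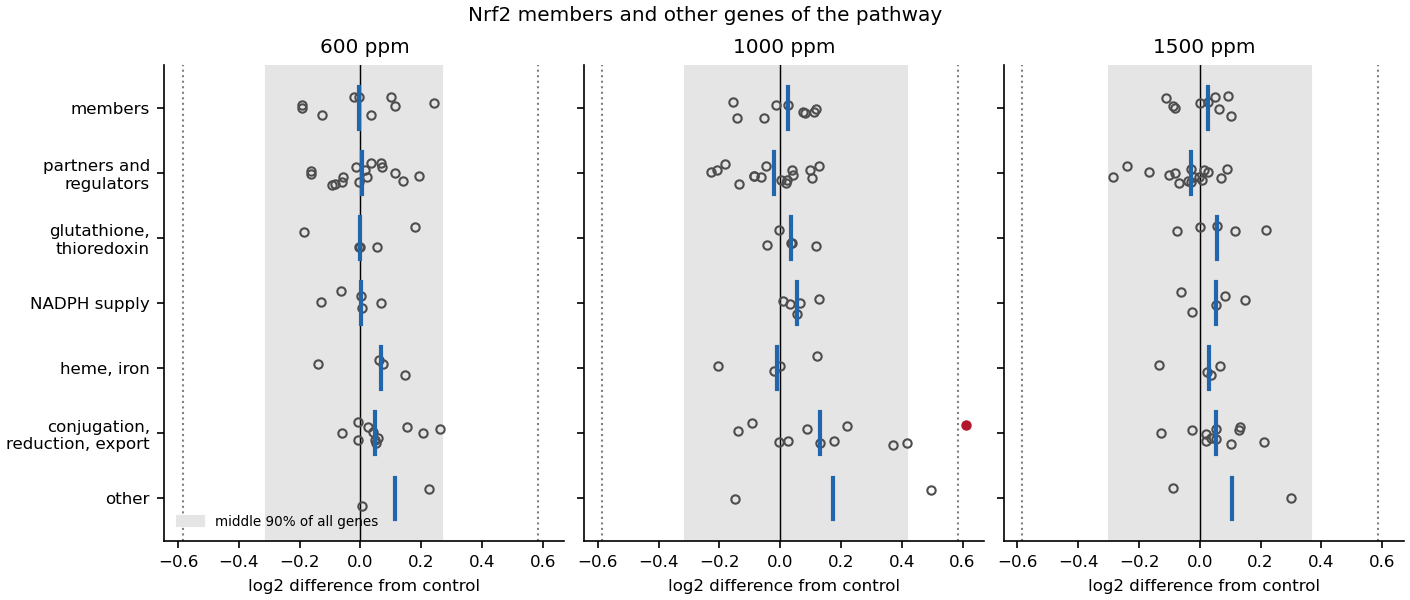
Difference from control (x axis, log2) at 600, 1000 and 1500 ppm for the 9 members and for each group of further Nrf2 pathway genes (y axis). Circles are genes, the filled red circle is Gstm1, blue lines are group medians, the grey band holds the middle 90% of all genes tested and dotted lines mark 1.5-fold; all 9 members lie inside the band at each dose.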

How the data were processed

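Lung RNA, extracted with Trizol per the labels, was hybridised to 24 Agilent rat arrays with 1 colour. The authors' deposited intensity values are Feature Extraction 11.5.1.1 processed signals, background-subtracted within each array. The authors' deposited series table holds the same intensities, equal within 0.1% for at least 99.7% of probes per array. Groups came from the sample labels. The array number limits the precision.

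Spots that were no controls (42877) were averaged into 30367 probes, of which 18355 (60.4%) were named by accession through a RefSeq gene table of GRCr8. No coordinates of array features are given, as the array was designed on another build. Each log2 signal, taken relative to the 75th percentile of the array, was fitted with limma 3.58.1 (R 4.3.3) on all 24 arrays. A probe was kept if any group had it well above background on 5 or more of its 6 arrays (23622 probes), and the brightest probe represented a gene. A gene passed at 1.5-fold and an unadjusted p-value under 0.05, the rule of the study's methods, and Benjamini-Hochberg values were taken over all genes tested. Pair correlations used 100000 permutations within sex-by-dose groups. The steps were tested on simulated data. The labels do not say that rats were housed or processed apart, so p-values measure the spread between these rats.

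The members, the pathway lists and the tests were chosen with earlier results of these data known. The named genes were all members, the list genes that passed (otherwise the one with the smallest p) and the most similar gene of each member; Osgin1 was named in addition after its values were seen. Alternatives were normexp correction, quantile, median and no scaling, other filters on dim probes, the methods' t-test, fewer arrays in the fit, sex or slide in the model, array weights, the mean over probes, and leaving out each rat. Normexp for the pairs, and leaving out rats for the sexes, were added after seeing the data.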

Additional observations from a re-analysis of the deposited data

Results flagged for a closer look

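Each of 36 groups of 6 rats (9 genes in 4 groups) was examined for a rat far from the others, and chance flags about 1 group in 20. For Gclm, control rat 23 (female, -2.81) was the highest of its group, with a gap to the next rat of 0.773 of the range of the group. For Srxn1, 1500 ppm rat 37 (female, -0.58) was the highest, with a gap of 0.629 of the range.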

How the results depend on the processing

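No member passed the threshold at 600, 1000 or 1500 ppm under any of 14 alternatives or without any of the 24 rats. No count of members with a trend over dose differed from 0. The 2 comparisons within a slide cannot decide whether a member passes, as each sets 1 rat at 600 ppm against 3 controls. Differences past 1.5-fold there were 0.80 for Hmox1 in males, and -0.81 for Nqo1 and -0.88 for Gclm in females. The female controls for Gclm included the rat far above all others. The other members stayed within 1.5-fold on either slide. By the methods' t-test 87, 296 and 187 genes passed the threshold at the 3 doses, and 0, 2 and 1 after Benjamini-Hochberg, with 0 members in any of these. Of 372 values of a member at a dose under the 14 alternatives, 327 kept their sign, and 45 turned it, each being a difference that did not pass under either setting. The causes of the turned signs were not tested. Several alternatives leave the difference of a member as it was, so the count of kept signs overstates stability. These were the methods' t-test, fewer arrays in the fit, sex in the model, the adjusted p alone and the filters on dim probes. The mean over probes moves only Txnrd1. With normexp correction the log2 differences that turned were 0.029 (Gclc) and -0.22 (Slc7a11) at 600 ppm, 0.014 (Nqo1) and -0.50 (Slc7a11) at 1000 ppm, and -0.21 (Gclm) and -0.15 (Slc7a11) at 1500 ppm. With quantile normalization it was -0.081 for Gclm at 1500 ppm, and with scaling to the median 0.0082 for Gclc at 600 ppm and -0.0076 for Gclm at 1500 ppm. In the authors' table without scaling they were 0.065 (Gclc) and 0.047 (Txnrd1) at 600 ppm, 0.091 (Nqo1) and 0.051 (Hmox1) at 1000 ppm, and -0.037 (Nfe2l2), -0.0019 (Nqo1), -0.065 (Gclm) and -0.016 (Txnrd1) at 1500 ppm. With slide as a fixed block they were -0.11 (Srxn1) and -0.0095 (Slc7a11) at 600 ppm, -0.042 (Nfe2l2), 0.11 (Hmox1), -0.017 (Gclc), -0.16 (Srxn1), -0.016 (Txnrd1) and -0.15 (Slc7a11) at 1000 ppm, and -0.10 (Nfe2l2), -0.38 (Nqo1), 0.015 (Hmox1), -0.19 (Gclc), -0.54 (Gclm), -0.28 (Txnrd1) and -0.26 (Slc7a11) at 1500 ppm. With slide as a random block they were 0.0015 (Gclc) at 600 ppm, -0.017 (Srxn1) at 1000 ppm, and -0.030 (Nqo1), -0.11 (Gclm) and -0.020 (Txnrd1) at 1500 ppm. With array weights they were 0.0028 (Gclc) and 0.046 (Txnrd1) at 600 ppm, and 0.037 (Keap1), -0.011 (Nqo1), 0.059 (Hmox1), -0.010 (Gclc), -0.016 (Gclm) and -0.15 (Slc7a11) at 1500 ppm. Within the slide of male controls the 600 ppm differences of opposite sign were 0.054 (Keap1), 0.34 (Gclm), -0.28 (Srxn1) and 0.20 (Txnrd1), and within that of female controls -0.079 (Nfe2l2), -0.078 (Hmox1) and -0.17 (Slc7a11).

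Without 1 rat at a time, the differences whose sign turned ranged at 600 ppm from -0.076 to 0.082 (Gclc), -0.37 to 0.34 (Gclm) and -0.093 to 0.055 (Txnrd1). At 1000 ppm they ranged from -0.00055 to 0.052 (Nfe2l2), -0.13 to 0.10 (Nqo1), -0.13 to 0.025 (Hmox1), -0.33 to 0.37 (Gclm), -0.046 to 0.21 (Srxn1) and -0.012 to 0.14 (Slc7a11). At 1500 ppm they ranged from -0.028 to 0.18 (Nqo1), -0.18 to 0.53 (Gclm), -0.26 to 0.042 (Srxn1), -0.014 to 0.11 (Txnrd1) and -0.069 to 0.19 (Slc7a11). The count of members with a sex interaction at 1500 ppm ranged from 0 to 1, the 1 being Gclm, whose adjusted p ranged from 0.0275 to 0.113. Members that differed between the sexes numbered 3 or 4 without 1 rat, 4 without the slide block, 3 with quantile normalization and 7 with normexp correction. Over the whole array such genes numbered 3157 of 21261 in the main fit and 5600 without the slide block. They numbered 2763 with quantile normalization and 8300 with normexp correction, and there the member count moved in the same direction. Without the slide block the member count stayed at 4. Pairs that passed numbered 0 with slide means removed, 0 with normexp correction, 6 with quantile normalization, and 2 were at or above the smallest passing r without the 2 farthest rats. Genes passing the threshold over the whole array numbered 129, 347 and 262 at the 3 doses, and 41, 442 and 95 with normexp correction, which split the 1000 ppm calls into 74 higher and 368 lower against 275 and 72. The median of all genes at 1000 ppm was thereby -0.118 in place of 0.0055, a shift of -0.124, and the shift was 0.10 in the authors' table without scaling. Of the calls at 600, 1000 and 1500 ppm, 27.9%, 79.3% and 56.9% were higher than control, against 26.8%, 16.7% and 26.3% with normexp correction, 54.3%, 94.7% and 38.9% without scaling and 41.9%, 70.6% and 49.0% with quantile normalization. Genes passing numbered 583, 558 and 478 without the filter on dim probes, 50, 226 and 153 with probes well above background on all 24 arrays, 225, 330 and 398 with slide as a fixed block, 330, 510 and 265 with array weights, 140, 569 and 262 without scaling, and 140 at 1500 ppm with a random slide block. No paired analysis was possible because the groups share no replicate number. Weak signal over background limits Gclm and Slc7a11, which the filter on all 24 arrays removed.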
